A study of Mus musculus with 6 samples.

Results

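The genes described here are 10 named members of the ATF4 arm of the integrated stress response: the regulators Atf4, Atf5, Ddit3 and Trib3 and the target genes Asns, Psat1, Phgdh, Mthfd2, Chac1 and Gdf15. They were chosen by name from 36564 genes measured by messenger RNA sequencing in hearts of 32-week-old mice. Mice with the genotype ApoE-/- Timp3-/-, called double mutants below, gave libraries 4, 5 and 6. Their ApoE-/- littermates, the controls, gave libraries 1, 2 and 3, so all hearts carry the ApoE label and the groups differ by the Timp3 mutation, which removes an inhibitor of matrix-degrading proteases. The labels do not say which part of Timp3 is deleted. They give no sex and no pooling of animals. Beyond the word littermates the labels leave the relation of the samples unstated, and a p-value here covers the spread among these 6 libraries only. Values are FPKM, the fragments of a transcript divided by its length and by the mapped fragments of the library, summed over the transcripts of a gene, so levels of different genes can be compared per length.

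The integrated stress response starts when a kinase phosphorylates the translation factor eIF2, which lowers protein synthesis in general while letting ribosomes reach the coding sequence of Atf4. ATF4, a bZIP transcription factor, then raises genes for amino acid synthesis, amino acid transport and tRNA charging, together with factors such as CHOP that can lead to cell death. In heart muscle the response is best known from mitochondrial faults. Because ATF4 is controlled mainly at translation, its messenger RNA level is not a measure of its activity, and its targets are the usual messenger RNA readout.

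ATF4 binds with C/EBP partners to an element with the core TGATGNAA, and this core was searched for on both strands of 300-base promoter windows, from 250 bases before to 50 bases after each annotated transcript start (RefSeq, build GRCm38.p6). All 10 genes had a window, 13 windows in all, and 3 of the genes held the core, Chac1, Trib3 and Asns. Among all 27025 genes with a window 4.51% held it, and 3.97% of the 32851 windows. In Asns the core is part of the amino acid response element known from the human gene. The stretches are shown because these 3 members carry the letters; they run 5′ to 3′ on the gene's strand, with the match in capitals. Only bases before the start are given for Chac1 and Asns, and 30 bases round the match for Trib3, whose match begins at base 15 of the transcript.
Asns, chr6:7693210-7693278, minus strand, match from 23 bases before the start: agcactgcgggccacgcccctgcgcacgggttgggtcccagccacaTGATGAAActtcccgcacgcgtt
Chac1, chr2:119351003-119351102, plus strand, match from 193 bases before the start and read on the opposite strand: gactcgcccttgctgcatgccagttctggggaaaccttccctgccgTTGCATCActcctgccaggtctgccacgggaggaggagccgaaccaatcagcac
Trib3, chr2:152344028-152344057, minus strand, read on the opposite strand: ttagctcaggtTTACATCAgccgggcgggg
The cyclic AMP response element TGACGTCA, searched for in the same way, was in 0 of the 10 genes and in 2.03% of all genes. No match says only that these letters are not in the window. By mean level, Chac1, Trib3 and Asns took places 4, 5 and 6 of the 10 members.

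The libraries differed in ways other than genotype. Aligned bases ran from 683 to 910 megabases in the double mutants and from 654 to 1339 in the controls. The summed level of 6 atrial muscle markers was 179 to 1482 FPKM in double mutants and 114 to 1727 in controls, lowest in libraries 3 and 4. Red blood cell markers (4 of 6 listed genes were in the files) summed to 105 to 3044 in double mutants and 26.3 to 129 in controls, highest in library 4. The 6 adipocyte markers summed to 1.18 to 27.4 and to 3.63 to 165, highest in library 1. General heart muscle markers (Myh6, Tnnt2, Tnni3, Actc1, Myl2 and Ryr2) were high in every library, as the tissue label says, and no marker of any list was at 0 throughout. Timp3 was listed at 20.2, 28.0 and 29.6 FPKM in libraries 4, 5 and 6, against 52.1, 38.0 and 36.3 in libraries 1, 2 and 3 (adjusted p = 0.29 by limma, exact permutation p = 0.1). All 3 double mutants lay below all 3 controls but kept reads of Timp3, and since the deleted part is not given these reads do not check the labels further. Apoe was listed at 3.50, 2.08 and 1.84 FPKM in double mutants, against 4.15, 2.29 and 2.85 in controls, above 0 in all 6 libraries (adjusted p = 0.75 by limma).

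The members spanned a wide range of levels, with Atf4 and Atf5 at the top. Mean FPKM over the 6 libraries was 16.2 for Atf4, 13.5 for Atf5, 4.49 for Ddit3, 3.66 for Chac1, 1.66 for Trib3 and 1.13 for Asns. The other 4 had a mean below 1 FPKM: Mthfd2 (0.791), Gdf15 (0.786), Psat1 (0.690) and Phgdh (0.0925). Psat1 and Phgdh were below 1 in all 6 libraries, Mthfd2 and Gdf15 each in 3 of 3 double mutants and 2 of 3 controls, and Asns in 1 library of each genotype. Atf4 lay above 90.4% of all genes with any reads, Asns above 50.5% and Phgdh above 27.2%. In this order the ranges over libraries did not overlap between Atf5 and Ddit3, between Chac1 and Trib3 and between Psat1 and Phgdh, and all other neighbours overlapped. Atf4 was above Atf5 in 5 of 6 libraries and Mthfd2 above Gdf15 in 5 of 6.

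**Figure D1:**
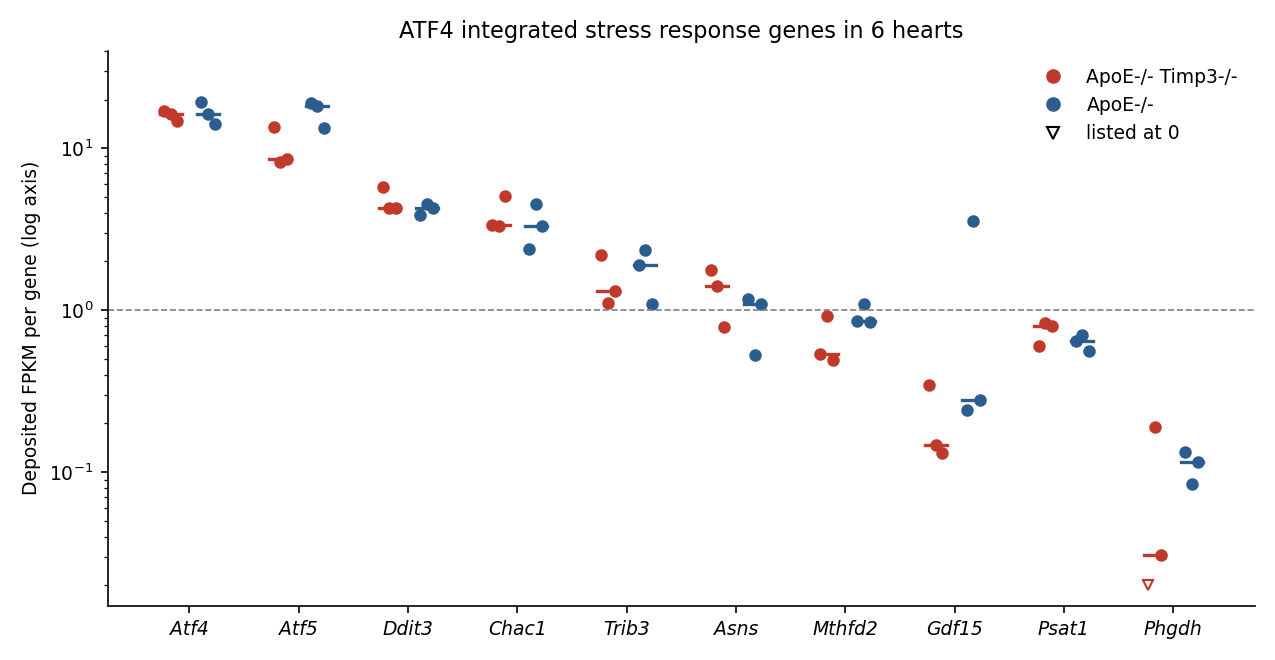
Deposited FPKM of the 10 members on a log axis, 1 point per library, with double mutants left of controls for each gene, short lines at group medians and the dashed line at 1 FPKM. Genes run from the highest mean, Atf4 at 16.2, to the lowest, Phgdh at 0.0925; the open triangle is Phgdh in library 4, listed at 0. Double mutant libraries 5 and 6 lie below every control for Atf5, and Gdf15 has a single high control point at 3.57.

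No member was called different between the genotypes. Genes with a mean of at least 1 FPKM entered limma's test on log2(scaled FPKM + 1), which took 6 of the 10 members. At an adjusted p under 0.05, 0 of these 6 passed, where 0.0516% of the 11630 genes tested did (6 genes, 3 higher, or 0.0258%, and 3 lower, or 0.0258%; no member is among them). At an unadjusted p under 0.05 stood 1 of 6, Atf5, where 12.2% of all tested genes did. The groups did not overlap after scaling in 1 of 6, Atf5 again, where 19.2% of all tested genes showed this. Of the 6, 2 had a difference below 0 and 4 above, where 51.3% of all tested genes were below 0 and 48.7% above. The median difference was 0.11 on the log2 scale, against -0.01 over all genes tested.

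Atf5, a bZIP factor close to ATF4 that is likewise controlled at translation and is known for the mitochondrial unfolded protein response, was the member that differed most among those tested. It lies on chromosome 7 (52067627 to 52072028, minus strand, build NCBIM37, as for all positions from here on). Atf5 was listed at 13.6, 8.21 and 8.60 FPKM in double mutant libraries 4, 5 and 6, against 19.0, 18.2 and 13.3 in control libraries 1, 2 and 3. As deposited, library 4 lay just above control library 3, and scaling between libraries placed the 3 double mutants under every control. The scaled means were 10.3 ± 2.54 in double mutants and 16.3 ± 1.82 in controls (SD, n = 3 each). Atf5 differed by -0.63 ± 0.18 (SE; 95% interval -1.06 to -0.21) on the log2 scale and did not pass over all genes (adjusted p = 0.27 by limma; exact permutation p = 0.1, the smallest that 3 against 3 libraries allow). Its unadjusted p stood at place 405 of the 11630 genes. Leaving out 1 library at a time gave differences between -0.81 (library 4 out) and -0.52 (library 6 out), and the adjusted p was 0.066 with libraries weighted by their spread and 0.58 without library 3, the ends of its range.

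All reads of Atf5 were given to the longer-spanning of its 2 reference transcripts, of 1815 nt. Its exons share up to 82 bases with Nup62 on the other strand. The overlapping Nup62 transcript was listed at 2.59, 2.41 and 1.36 FPKM in libraries 4, 5 and 6 and at 0 in the controls. Another transcript of that strand, sharing 71 bases, was listed at 1.95 FPKM in control library 2 and at 0 elsewhere. Since strand use is not stated, reads of the shared bases may belong to Atf5 or to these transcripts. Marker lists of other cells were compared between the genotypes as well, and no marker listed here passed the adjusted threshold. The endothelial and the fibroblast sums overlapped between the groups, while many single markers did not. After scaling the groups were apart in 3 of 6 endothelial, 4 of 6 fibroblast and 3 of 6 smooth muscle and pericyte markers, against 19.2% of all tested genes. Lower at an unadjusted limma p under 0.05 were 3, 3 and 2 of these, where 5.25% of all tested genes were. Higher were 0, 0 and 1, against 6.95%. The 6 endothelial markers summed to 66.3 to 96.4 FPKM in double mutants and 95.5 to 118 in controls, with 5 of 6 below 0 in log2 difference. The 6 fibroblast markers summed to 181 to 200 and to 165 to 308, with 6 of 6 below 0. Dcn made up most of the fibroblast sum (scaled means 150 in double mutants and 153 in controls). The 6 smooth muscle and pericyte markers summed to 264 to 273 and to 294 to 362, with 4 of 6 below 0. Most of that sum was the pericyte gene Rgs5 (scaled means 214 in double mutants and 277 in controls). The 2 above 0 were the smooth muscle genes Acta2 (41.0 against 26.2) and Tagln (14.2 against 13.0). A further smooth muscle gene, Myh11, was below 0 (2.19 against 2.47). Other lists lay the other way, with 5 of 6 general heart muscle markers, 3 of 3 tested red blood cell markers and 4 of 4 tested skeletal muscle markers above 0. In these 3 lists the groups were apart in 1, 2 and 2 markers. No marker of these lists was at 0 throughout. Their part in the Atf5 difference was not tested. In whole hearts fewer cells of a type and less RNA per cell cannot be told apart.

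Atf4 itself, the master regulator of the response, was nearly level over the 6 libraries. It lies on chromosome 15 (80085614 to 80087970, plus strand). It was listed at 16.9, 16.3 and 14.6 FPKM in double mutants, against 19.3, 16.2 and 14.1 in controls. As deposited, the double mutants lay inside the range of the controls, while after scaling the controls lay inside that of the double mutants. The highest deposited value was 1.37 times the lowest. Scaled means were 16.4 ± 1.86 and 16.0 ± 0.631 (SD, n = 3 each; log2 difference 0.03, 95% interval -0.26 to 0.31, adjusted p = 0.96 by limma). Its sign turned under other scalings, so no direction is given. A single one of its 2 reference transcripts, of 1371 nt, held all its FPKM.

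Ddit3 and Trib3 act downstream, and both overlapped between the genotypes. Ddit3 encodes CHOP, the bZIP factor that ties lasting stress to cell death (chromosome 10, 126727830 to 126733344). It was listed at 5.76, 4.30 and 4.25 FPKM in double mutants, against 3.88, 4.50 and 4.28 in controls. Double mutant library 4 was the highest of the 6, and the other two double mutants sat among the controls. Scaled means were 4.86 ± 0.705 and 4.15 ± 0.717 (SD, n = 3 each; log2 difference 0.19, 95% interval -0.17 to 0.55, adjusted p = 0.67 by limma). The Ddit3 difference was 0.068 without library 1 and 0.10 without library 4. The methionyl-tRNA synthetase gene Mars, itself on the list of tRNA synthetases below, shares 63 to 68 exonic bases with Ddit3 on the other strand.

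Trib3 encodes a pseudokinase that is induced by CHOP and ATF4 and restrains both (chromosome 2, 152163158 to 152169768). It was listed at 2.19, 1.11 and 1.32 FPKM in double mutants, against 1.91, 2.36 and 1.09 in controls. Each genotype held high and low libraries. Scaled means were 1.56 ± 0.50 and 1.72 ± 0.586 (SD, n = 3 each; log2 difference -0.09, 95% interval -0.59 to 0.41, adjusted p = 0.91 by limma). Its reads were split over 2 reference transcripts and, in library 5, an assembled one. The transcript of 2026 nt was listed at 0.660, 0 and 0 in double mutants, against 1.33, 0.588 and 0.499 in controls, and that of 1901 nt at 1.53, 0.276 and 1.32, against 0.583, 1.77 and 0.589. Both transcripts overlapped between the groups, and the gene sum was not carried by the same transcript in every library.

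**Figure D2:**
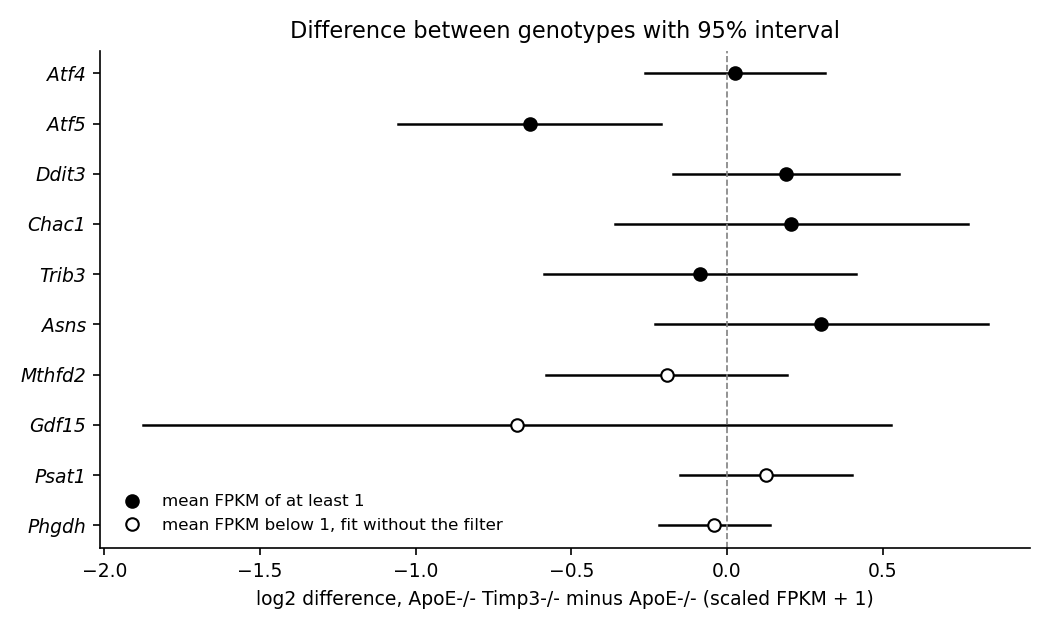
Log2 difference of each member, double mutants minus controls, on the scale of log2(scaled FPKM + 1), with 95% intervals from limma and a dashed line at 0; filled points are the 6 members tested, open points the 4 below a mean of 1 FPKM, from the fit without that filter. The interval of Atf5 (-1.06 to -0.21) lies below 0, and the other 9 intervals include 0, that of Gdf15 being the widest.

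The tested target genes Asns and Chac1 also overlapped. Asns makes asparagine from aspartate and glutamine and is a classical ATF4 target (chromosome 6, 7625169 to 7643254). It was listed at 1.78, 1.42 and 0.789 FPKM in double mutants, against 1.18, 0.526 and 1.09 in controls. The highest libraries were double mutants 4 and 5 and the lowest was control 2. Scaled means were 1.36 ± 0.513 and 0.905 ± 0.342 (SD, n = 3 each; log2 difference 0.30, 95% interval -0.23 to 0.84, adjusted p = 0.65 by limma). The Asns difference was 0.15 without library 2, 0.50 without library 6 and 0.13 with weighted libraries. Its full reference transcript of 2001 nt was listed at 0 in libraries 1 and 6, where an assembled transcript of 1881 nt held 1.18 and 0.409 FPKM, so a sum over reference transcripts alone would list Asns at 0 in library 1.

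Chac1 encodes an enzyme that degrades glutathione and is a sensitive marker of the ATF4 and CHOP branch (chromosome 2, 119176965 to 119180117). It was listed at 3.34, 3.31 and 5.05 FPKM in double mutants, against 2.40, 4.56 and 3.30 in controls. The highest and the lowest library came from different genotypes, with control library 1 lowest. Scaled means were 3.97 ± 0.911 and 3.39 ± 1.24 (SD, n = 3 each; log2 difference 0.21, 95% interval -0.36 to 0.77, adjusted p = 0.77 by limma). Without library 1 the difference was -0.03, so even its sign rested on that library.

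Psat1, Phgdh and Mthfd2, the enzymes that lead from glycolysis to serine and on to mitochondrial folate, all had means below 1 FPKM. Psat1, which forms phosphoserine (chromosome 19, 15979168 to 16021827), was listed at 0.600, 0.832 and 0.797 FPKM in double mutants, against 0.650, 0.703 and 0.559 in controls. The groups overlapped through library 4. In the fit without a filter on low values, over 22838 genes, Psat1 differed by 0.13 on the log2 scale (95% interval -0.15 to 0.40, adjusted p = 0.79 by limma). Assembled transcripts on the opposite strand lay over Psat1 exons in libraries 4, 1 and 2, at 0.306, 1.09 and 0.483 FPKM, and were not added to it.

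Phgdh, the first enzyme of serine synthesis (chromosome 3, 98117093 to 98143913), was listed at 0, 0.190 and 0.0310 FPKM in double mutants, against 0.134, 0.0846 and 0.115 in controls. The lowest and the highest value were both double mutants. A listed 0 can be a failed estimate in these files, so no fold is given. Copies of its transcripts, over at least 300 nt at 90% identity or more, stood in 22 other annotated genes, most of them processed pseudogenes, and 7 of these were in the files at up to 0.359 FPKM. Reads could therefore be shared between Phgdh and its copies, and its level is uncertain. Psat1 had 1 such copy and the other 8 members had none.

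Mthfd2, a mitochondrial enzyme of folate metabolism best known from growing cells (chromosome 6, 83255685 to 83267600), was listed at 0.535, 0.919 and 0.496 FPKM in double mutants, against 0.864, 1.09 and 0.844 in controls. Double mutant library 5 lay between controls, so the sums overlapped (untested log2 difference -0.20). The transcripts behind the sum differed. The 8-exon coding transcript of 2085 nt was listed at 0.326, 0.157 and 0.332 FPKM in double mutants, against 0.864, 1.09 and 0.844 in controls, and held the whole sum in every control. As deposited, without scaling, it averaged 0.272 ± 0.0990 in double mutants and 0.932 ± 0.137 in controls (SD, n = 3 each). The exact permutation p on these deposited values was 0.1, the smallest possible. The rest of the sum in double mutants came from short annotated transcripts of 358 to 627 nt, each with a deposited interval that starts at 0. The transcript of 2085 nt was singled out after its values were seen, so its permutation p is no independent test. The deposited 95% intervals of its FPKM reached 0.572 at most in double mutants and started at 0.503 at least in controls, so those of single libraries overlapped.

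**Figure D3:**
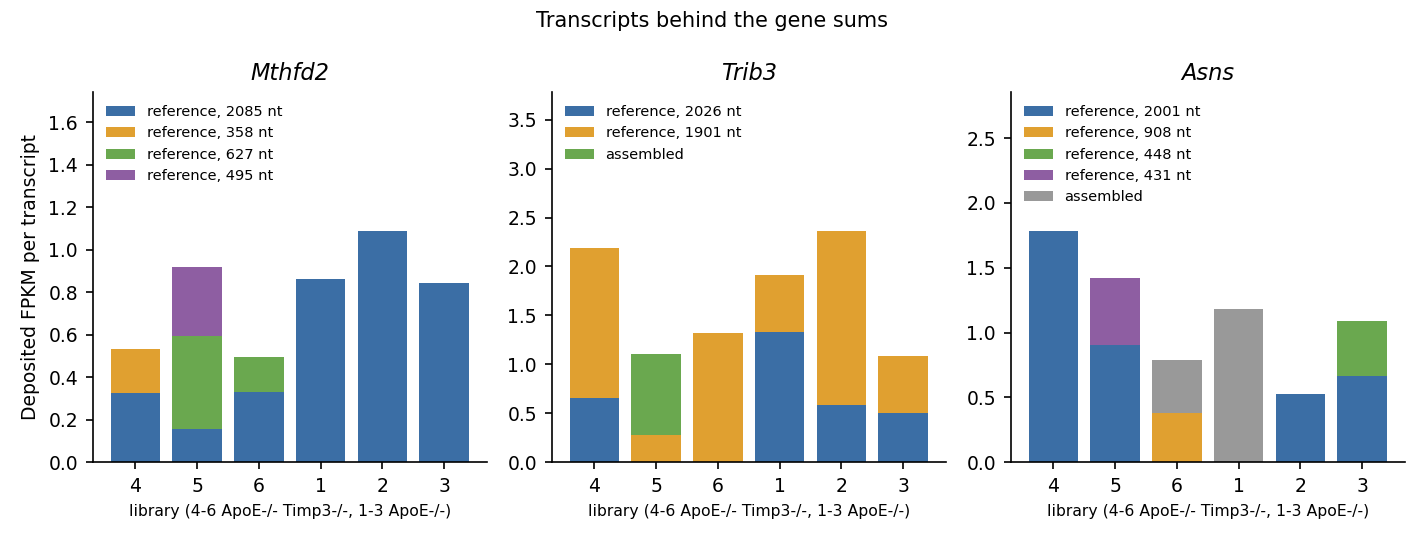
Deposited FPKM of the transcripts that make up the gene sums of Mthfd2, Trib3 and Asns, stacked per library, with double mutant libraries 4, 5 and 6 left of control libraries 1, 2 and 3 and lengths of the reference transcripts in the legends. The blue Mthfd2 transcript of 2085 nt lies between 0.157 and 0.332 in double mutants and between 0.844 and 1.09 in controls, while the sums overlap; Trib3 and Asns draw on different transcripts in different libraries.

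Gdf15, a secreted stress hormone that acts on a brainstem receptor to lower food intake, was high in a single library and low in the other 5. It lies on chromosome 8 (73153292 to 73156355, minus strand). It was listed at 0.343, 0.147 and 0.131 FPKM in double mutants, against 0.242, 3.57 and 0.278 in controls. Control library 2 stood at 14.8 times the median of the other 5 libraries, and the other two controls lay within the range of the double mutants. The deposited 95% interval of its only transcript with reads was 2.99 to 4.16 in library 2, and the highest upper bound elsewhere was 0.572, in library 4. Scaled means were 0.209 ± 0.109 in double mutants and 1.35 ± 1.90 in controls (SD, n = 3 each; exact permutation p = 0.3). The untested log2 difference of -0.68 was -0.06 without library 2.

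Gdf15 was 1 of a set of genes that were high in library 2 alone. In that library 34 genes, at 1 FPKM or more and above 0 everywhere, were at least 2 times every other library; the same count was 77, 5 and 8 in libraries 4, 5 and 6 and 211 and 12 in libraries 1 and 3. Gdf15 was 10.4 times the next library; it reached 1 FPKM in library 2 only, so this ratio has a value near 0 below it. Of the others, 3 are shown, chosen after their values were seen; they stand for no group, and no list was tested. Nppb, which encodes B-type natriuretic peptide, was listed at 34.5, 26.0 and 20.4 FPKM in double mutants, against 34.2, 133 and 40.7 in controls. Ankrd1, a stretch-responsive ankyrin repeat protein gene, was at 216, 190 and 112, against 126, 591 and 168. Cpxm2, of the carboxypeptidase family, was at 3.01, 2.95 and 3.40, against 5.42, 19.1 and 7.18. The 3 genes stood at places 7, 12 and 13 of the 34 by ratio to the next library, and Eif2ak2, a kinase of the wider pathway, at place 21. Of the other members, Trib3 and Mthfd2 were also highest in library 2, though by less than 2 times the next library, whereas Asns was lowest there. Library 2 was also the deepest, at 1339 aligned megabases, and its part in these values was not tested.

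**Figure D4:**
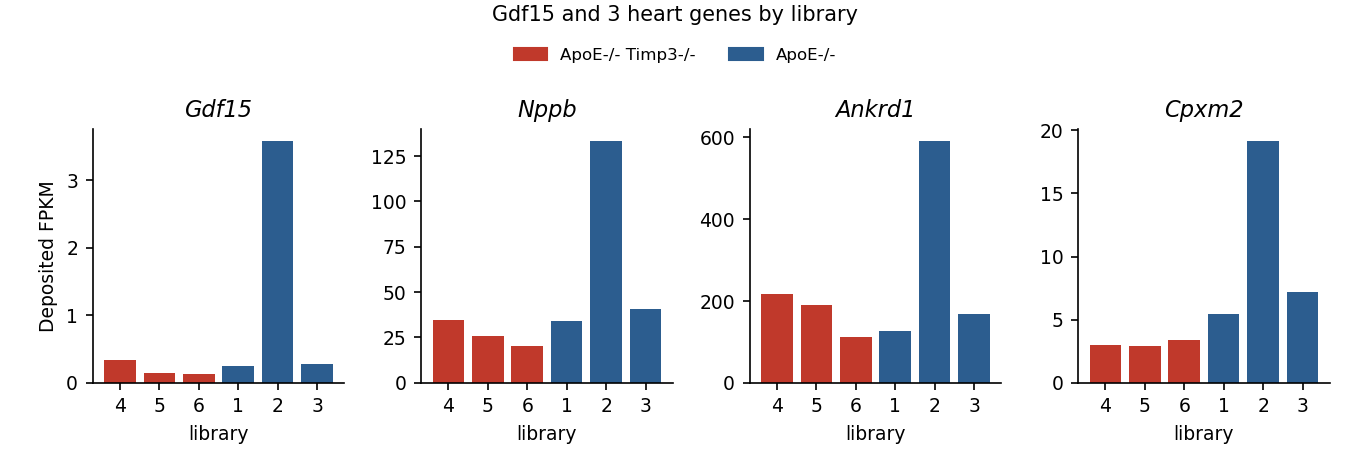
Deposited FPKM of Gdf15, Nppb, Ankrd1 and Cpxm2, 1 bar per library, with double mutant libraries 4, 5 and 6 left of control libraries 1, 2 and 3 and each axis starting at 0. Control library 2 is the highest bar in all 4 panels, at 3.57 for Gdf15 and 133 for Nppb.

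Beyond the 10 members, 97 genes of the same pathway were listed by role. In the files were 96 of them (Slc7a5 was not analysed here) and 82 were tested. By limma 0 of the 82 passed the adjusted threshold of 0.05. At an unadjusted p under 0.05 stood 2 higher and 4 lower genes, where 6.95% and 5.25% of all tested genes were. The groups did not overlap in 13 of 82, against 19.2% of all genes. Differences below are on the log2 scale, means are scaled FPKM ± SD over 3 libraries of each genotype, and adjusted p are by limma.

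Of the list that sets eIF2 phosphorylation, 9 of 9 genes were tested: 4 kinases, 2 phosphatase subunits, their target Eif2s1 and the mitochondrial relay genes Dele1 and Oma1. There were 6 below 0 and a median of -0.11. Eif2ak2, the kinase activated by double-stranded RNA, was at 1.61 ± 0.0284 in double mutants and 3.63 ± 2.07 in controls (difference -0.74, adjusted p = 0.37); control library 2 was highest at 6.06 FPKM, and the groups did not overlap. The Eif2ak2 difference was -0.40 without library 2, -0.19 with reference transcripts only and -0.20 with the strongest transcript. Eif2ak1, the kinase that senses heme shortage and mitochondrial stress, was at 4.21 ± 0.526 against 4.81 ± 0.137 (-0.16, adjusted p = 0.64). Dele1, which relays mitochondrial stress to that kinase, was at 18.9 ± 0.643 against 20.7 ± 0.417 (-0.12, adjusted p = 0.68), with no overlap between the groups. Ppp1r15b, the constitutive phosphatase subunit, was at 10.1 ± 1.53 against 9.74 ± 0.682 (adjusted p = 0.95). Of the other eIF2 and the eIF2B subunits 7 of 7 were tested, with 5 above 0 and a median of 0.03. Eif2s2 was at 16.5 ± 0.833 against 13.7 ± 1.29 (0.26, adjusted p = 0.44), Eif2s3x at 4.66 ± 0.293 against 3.87 ± 0.280 (0.22, adjusted p = 0.50) and Eif2b4 at 8.86 ± 1.24 against 8.61 ± 0.916 (adjusted p = 0.95).

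None of the partner and related bZIP factors was called. Of 10 genes 9 were tested, 8 lay above 0 and the median was 0.22, with 2 higher at an unadjusted p under 0.05, where 6.95% of all tested genes were. Atf3, a stress-induced factor below ATF4, was listed at 5.29, 4.37 and 2.42 FPKM in double mutants, against 3.17, 1.45 and 1.42 in controls (difference 0.80, adjusted p = 0.33). Double mutant library 6 lay below control library 1, so the groups overlapped. Nfe2l2, the regulator of antioxidant genes, was listed at 24.0, 38.4 and 34.0, against 24.5, 20.7 and 20.7 (0.57, adjusted p = 0.36), and library 4 cleared control library 1 only after scaling. Markers of heat shock and immediate early response, which can reflect how tissue was taken, summed to 15.2 to 19.0 FPKM in double mutants and 18.6 to 21.2 in controls, none at 0 throughout (8 genes, 4 tested, 3 of them below 0); their part here was not tested. Cebpb, a binding partner of ATF4, was listed at 24.6, 31.3 and 19.7, against 15.1, 27.0 and 0; the 0 in library 3 may be a failed estimate, so no fold is given (adjusted p = 0.58).

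Enzymes of serine, glycine, proline and folate metabolism were mostly low. Of 11 genes 6 were tested, with 4 below 0 and a median of -0.24, which rested on library 5, where Psph and Shmt1 were listed at 0; without that library the median was 0.04. Aldh18a1, which makes the precursor of proline, was listed at 0.787, 0.347 and 0.596 FPKM in double mutants, against 1.80, 2.07 and 1.63 in controls. No double mutant reached the lowest control (difference -0.82, adjusted p = 0.23, place 58 of 11630 by unadjusted p). All 3 double mutants were below 1 FPKM, and the mean of 1.21 passed the filter only through the controls. The gap and the place are therefore not independent of the filter. Shmt2, the mitochondrial serine enzyme, was at 6.71 ± 0.659 in double mutants and 6.23 ± 0.656 in controls (adjusted p = 0.81), and Mtap, of methionine salvage, at 4.04 ± 0.316 against 4.13 ± 0.492 (adjusted p = 0.97). Shmt1, its cytosolic counterpart of folate metabolism, was listed at 1.87, 0 and 1.35, against 1.92, 2.26 and 0.893 (adjusted p = 0.70).

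No amino acid transporter or tRNA charging enzyme passed the adjusted threshold. Of 10 listed transporters 5 were tested, and 5 of 5 lay above 0 with a median of 0.06. Slc38a2, a transporter of small neutral amino acids, was at 26.6 ± 6.99 in double mutants and 19.1 ± 4.38 in controls (0.45, adjusted p = 0.49), Slc3a2, the shared heavy chain, at 5.73 ± 0.697 against 4.78 ± 0.284 (0.21, adjusted p = 0.55) and Slc7a1, for basic amino acids, at 6.85 ± 1.70 against 6.50 ± 1.11 (adjusted p = 0.94). Without further scaling the Slc7a1 difference was -0.0098, and with reference transcripts only Slc38a2 was at 0.75 and Slc3a2 at 0.062. Of the aminoacyl-tRNA synthetases and Xpot 13 of 13 were tested, 11 lay below 0, and the median was -0.16. The groups did not overlap in 5 of the 13, against 19.2% of all tested genes. Wars, for tryptophan, was at 4.83 ± 0.793 against 6.58 ± 0.456 (-0.39, adjusted p = 0.34, the single one at an unadjusted p under 0.05). Sars, for serine, was at 10.6 ± 1.54 against 12.7 ± 1.41 (-0.24, adjusted p = 0.57), Cars, for cysteine, at 2.45 ± 0.264 against 3.18 ± 0.623 (-0.27, adjusted p = 0.52) and Eprs, for glutamate and proline, at 25.2 ± 3.89 against 23.8 ± 3.25 (adjusted p = 0.89).

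Further ATF4 targets did not lean to either side, with 10 of 14 tested, 5 above and 5 below 0 and a median of 0.02. Herpud1, of protein degradation at the endoplasmic reticulum, was at 56.1 ± 3.11 in double mutants and 47.8 ± 1.62 in controls (0.23, adjusted p = 0.48). The groups did not overlap after scaling, while as deposited double mutant libraries 5 and 6 lay below control library 1. The Herpud1 difference was 0.57 with reference transcripts only. Sqstm1, an autophagy receptor, was at 124 ± 11.9 against 128 ± 29.9 (adjusted p = 0.97) and Cdkn1a, a cell cycle inhibitor, at 3.74 ± 1.43 against 5.78 ± 3.52 (-0.45, adjusted p = 0.69; -0.049 without library 2). Fgf21, the other hormone of the response beside Gdf15, was listed at 0 in every library but library 2, at 0.0874 FPKM.

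Stress genes of neighbouring pathways gave a background for these values. Of the mitochondrial chaperones and proteases 8 of 8 were tested, with 4 on each side of 0 and a median of 0.00. Hspd1 was at 139 ± 47.0 in double mutants and 115 ± 30.4 in controls (0.26, adjusted p = 0.76; 2.00 with reference transcripts only), Hspa9 at 80.8 ± 2.89 against 80.5 ± 4.16 (adjusted p = 0.99), Yme1l1 at 21.8 ± 4.58 against 18.4 ± 1.47 (adjusted p = 0.67) and Afg3l2 at 16.9 ± 0.750 against 19.4 ± 2.53 (adjusted p = 0.64). In the ATF6 and XBP1 branches, which sense unfolded proteins in the endoplasmic reticulum without ATF4, 15 of 15 genes were tested, 13 lay below 0 and the median was -0.05. Sdf2l1, a small chaperone cofactor, was listed at 1.05, 0.520 and 0.848 FPKM in double mutants, against 1.77, 1.64 and 1.78 in controls, with no overlap (-0.58, adjusted p = 0.26). Its mean of 1.27 passed the filter through the controls, with 2 of 3 double mutants below 1 FPKM, so this gap is not independent of the filter. The chaperone Hspa5 was at 140 ± 11.9 against 138 ± 21.3 (adjusted p = 0.97), Hsp90b1 at 54.1 ± 3.35 against 55.5 ± 6.23 (adjusted p = 0.95) and Manf at 8.01 ± 1.59 against 9.31 ± 0.903 (-0.20, adjusted p = 0.65).

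**Figure D5:**
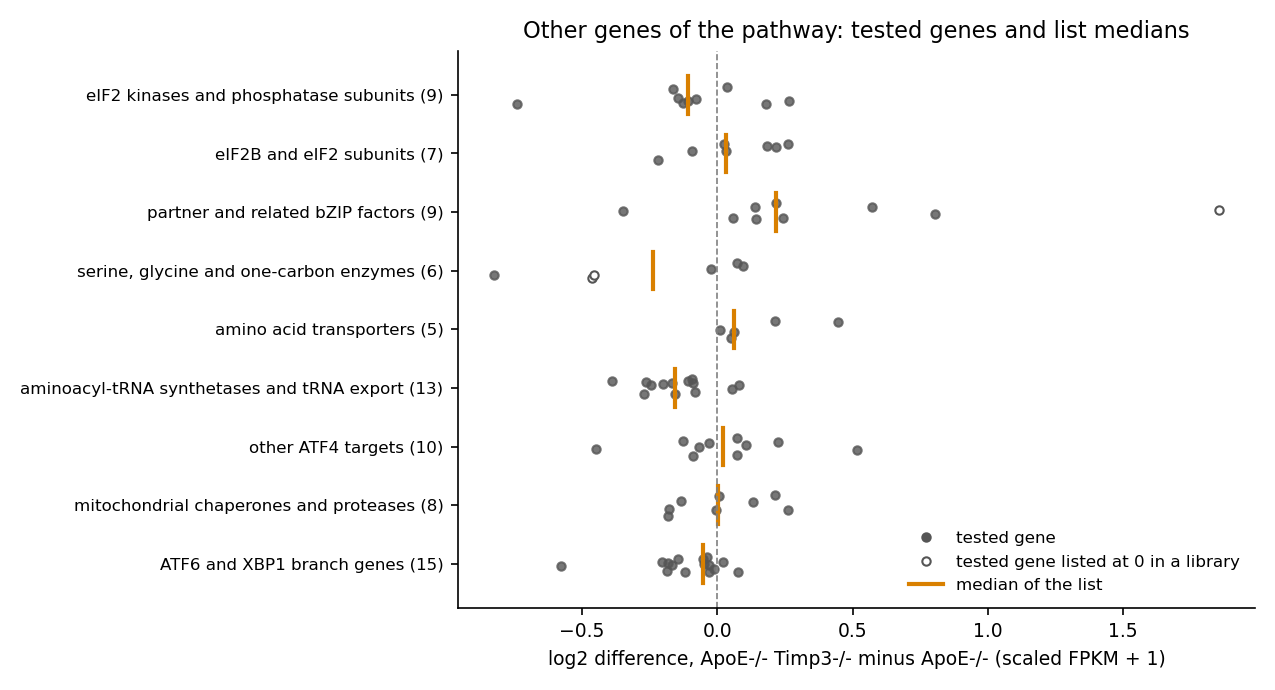
Log2 difference of each tested gene, double mutants minus controls, in 9 lists of the wider pathway, with the number tested in brackets, list medians as orange lines and open points for genes listed at 0 in a library. List medians lie between -0.24 (serine, glycine and one-carbon enzymes) and 0.22 (partner and related bZIP factors); the open point far to the right is Cebpb, listed at 0 in control library 3.

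The core TGATGNAA stood in a promoter window of 15 of the 74 listed pathway genes that have a window under the symbol used here, and 4.51% of all genes had one. Of these, Atf3, Herpud1, Eif2s3x, Jdp2 and Yars lay above 0 in log2 difference. Aars, Gars, Iars, Nupr1, Tars and Vldlr lay below 0. Fgf21, Pycr1, Slc1a4 and Slc7a11 had a mean below 1 FPKM and were not tested.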

How the data were processed

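For each library the authors deposited the transcripts from Cufflinks, with attributes that give the FPKM, its 95% interval and the coverage of each reference and assembled transcript. TopHat, Bowtie, Cufflinks and build NCBIM37 stand in the labels per the submitters' processing notes. The sources used here do not state versions, settings or strand use. Read numbers per gene are unknown, so no count test and no counting interval is given; depth was judged from coverage times length.

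Each transcript went to a gene by its ID, then by the gene ID beside it, then by sharing at least 50% of its exonic bases. Assembled transcripts of at least 300 nt followed the same overlap, except those on the opposite strand. FPKM were summed per gene. Of 36757 genes, 193 with a transcript absent from a file were left out.

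Genes with a mean of at least 1 FPKM were tested. Libraries were scaled to each other with median-of-ratios factors of 0.898 to 1.16. The two-sided test was limma (version 3.58.1, R 4.3.3) on log2(scaled FPKM + 1), using a trend in the mean level and Benjamini-Hochberg adjustment over all tested genes at 0.05; this scale understates changes of low genes. The fitting step was tested on simulated data. Means ± SD are of scaled values, except those of the single Mthfd2 transcript, which are of deposited values. Single library values are printed as deposited. Exact permutation p cannot go below 0.1 here. Symbols came from a later annotation by ID, and promoter sequences from RefSeq (GRCm38.p6), whose coordinates were not mixed with NCBIM37.

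The members and lists were chosen with earlier results of these data known. Named pathway genes were, per list, the 2 tested with the highest mean and the 2 with the smallest p. Every listed gene with the core TGATGNAA was also named, for its motif only. Outside the first rule, and chosen once their values had been seen, are Psph, Fgf21, Nup62, Mars, Nppb, Ankrd1 and Cpxm2. The alternatives changed 1 choice at a time: scaling, pseudocount, filter, transcripts summed, genes at 0, library weights, trend, each library left out and, chosen after seeing the data, genes with a transcript of at least 300 nt only.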

Additional observations from a re-analysis of the deposited data

How the results depend on the processing

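No paired analysis was possible because the library numbers 1 to 6 are not shared between the genotypes. Under all 17 alternatives 0 members and 0 listed pathway genes passed limma's adjusted threshold. The count over all genes, 6 as reported, was 11 without the filter, 1 with a mean of at least 3 FPKM, 10 with reference transcripts only, 0 without genes at 0 in any library, 32 with libraries weighted by spread, and 4 to 11 with a library left out (10 without library 2 and 11 without library 4). Atf5, Ddit3 and Asns kept their sign wherever they were tested. Without further scaling Atf4 was at -0.040, Ppp1r15b -0.030, Eif2b4 -0.029, Slc7a1 -0.0098, Hspa9 -0.063 and Hspa5 -0.047. Under quantile normalization Atf4 was at -0.023, Eprs -0.0030, Hspa9 -0.14 and Hspa5 -0.16. With a mean of at least 3 FPKM Atf4 was at -0.0015, Hspa9 -0.023 and Hspa5 -0.0070. With reference transcripts only Shmt2 was at -0.057 and Hspa9 -0.0087. With the strongest transcript Trib3 was at 0.037, Ppp1r15b -0.14, Eif2b4 -1.04, Shmt2 -0.067, Sqstm1 0.060, Hspa9 -0.020 and Afg3l2 0.52. With weighted libraries Mtap was at 0.092, Cdkn1a 0.063, Sqstm1 0.036, Hspa9 -0.019 and Hspa5 -0.16. In these the sign turned against the reported value, and the cause was not tested. With a library left out the differences ran from -0.047 to 0.11 for Atf4, -0.24 to 0.074 for Trib3, -0.033 to 0.40 for Chac1, -0.026 to 0.15 for Eif2b4, -0.036 to 0.21 for Eprs, -0.016 to 0.048 for Hspa9, -0.065 to 0.14 for Hspa5, -0.12 to 0.022 for Hsp90b1, -0.064 to 0.14 for Ppp1r15b, -0.091 to 0.049 for Mtap, -0.083 to 0.24 for Slc7a1, -0.13 to 0.16 for Sqstm1 and -0.75 to 0.00069 for Shmt1. Among the untested members, a pseudocount of 0.1 moved Psat1 to 0.25, Phgdh to -0.38 and Mthfd2 to -0.43, and the strongest transcript moved Psat1 to -0.045 and Mthfd2 to -0.59. The median of the serine, glycine and one-carbon list, -0.24 as reported, was -0.68 with that pseudocount, 0.012 with a mean of at least 3 FPKM, -0.028 with reference transcripts only and 0.026 without genes at 0. Reads per gene are not known, so genes below 1 FPKM rest on an unknown number of fragments.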
